A study of Mus musculus with 6 samples.

Results

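The genes described here encode 10 surface molecules of T cells that carry costimulation, adhesion or activation signals. They are Cd2, Cd5, Cd6, Thy1, Cd28, Icos, Ptprc, Cd48, Cd44 and Cd69, chosen by name from the 27179 genes of the deposited count table, and all 10 passed the filter on low counts that left 11740 genes. RNA was measured in 6 libraries labelled as transgenic CD8+ T cells, grown from all cells of the spleens of gBT-I mice, whose T cell receptor transgene is specific for a glycoprotein B epitope of herpes simplex virus. In 3 libraries the cultures had received butyrate, a short-chain fatty acid that inhibits histone deacetylases, from day 3, and the 3 control libraries came from cultures without it. Both groups were stimulated with the peptide and lipopolysaccharide, were given IL-2 between day 2 and day 5, and were harvested on day 6. The labels give no age or sex of the mice, name no sorting of the cells, and do not tie a replicate to a mouse or a culture.

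A T cell is fully activated when its antigen receptor and a costimulatory receptor are engaged together. CD28 supplies the early costimulatory signal and is present on resting cells, whereas its relative ICOS is induced by activation. CD2 and its mouse ligand CD48 hold the contact between cells, CD5 and CD6 are scavenger receptor family proteins that temper receptor signals, and CD45, the product of Ptprc, is the phosphatase that keeps Src family kinases ready. Thy-1 is an abundant glycolipid-anchored protein of mouse T cells, CD69 is an early activation antigen, and CD44, a hyaluronan receptor, stays high on cells that have met antigen.

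Library totals ran from 5383380 to 6244350 counts, and a member had between 232 counts, for Cd69 in butyrate replicate 1, and 11728 counts, for Thy1 in control replicate 3. Genes were called higher or lower at an adjusted p under 0.05 in edgeR's quasi-likelihood test over all tested genes. Icos was the only member called higher and Ptprc the only one called lower, and the other 8 were not called. Over all tested genes 45.9% were called, 23.5% higher and 22.5% lower. The members had a median log2 fold change of -0.18, against 0.0034 for all tested genes, and the fitted change was below 0 for 6 and above 0 for 4. The groups did not overlap for 3 members, Icos, Ptprc and Cd48, as for 57.1% of all tested genes. Libraries with the same replicate number deviated together, and with that number as a block the call of Icos stood and 4 members were called lower, namely Cd2, Cd5, Cd6 and Ptprc (background with the block 53.8% called, 27.4% higher and 26.4% lower).

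**Figure D1:**
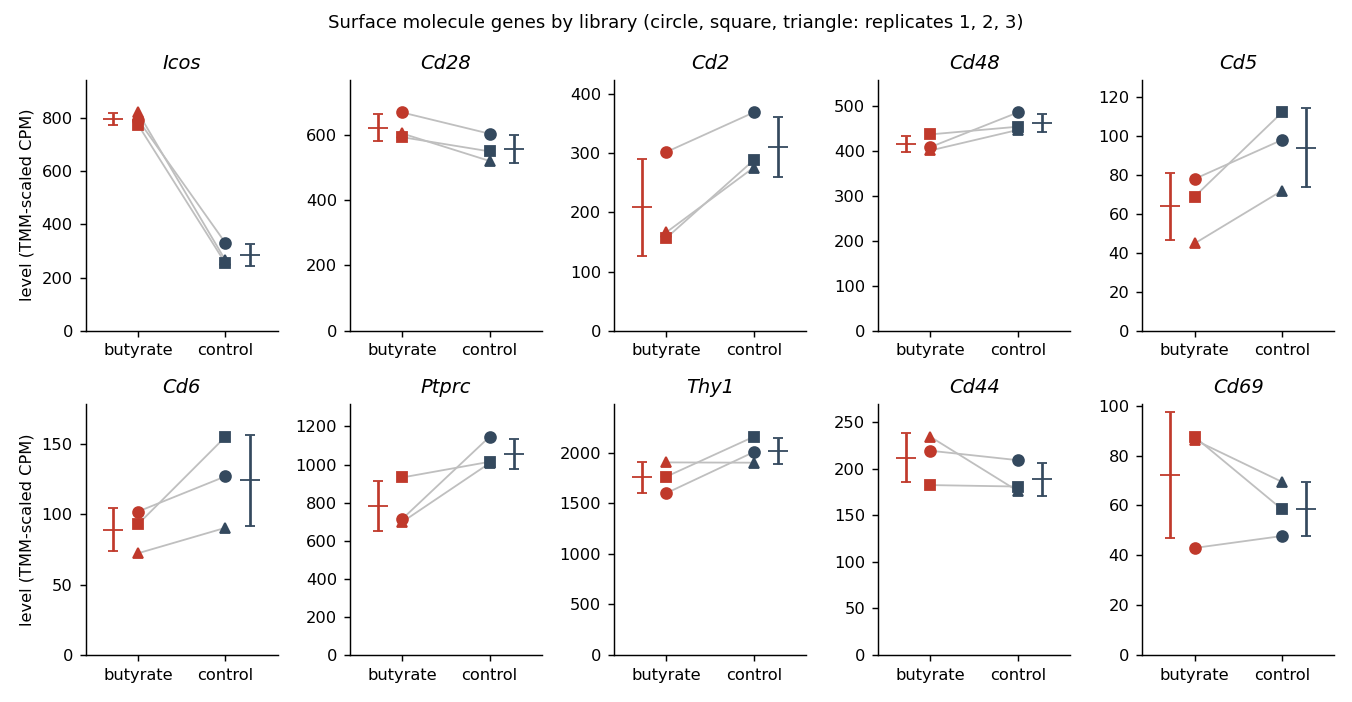
Level of each gene in TMM-scaled CPM (vertical axes from 0), with butyrate libraries in red left of control libraries in dark blue; grey lines join libraries with the same replicate number, and bars at the sides show mean and SD (n = 3). The butyrate libraries of Icos lie between 776 and 822 CPM, all above the control libraries, while every grey line of Cd2, Cd5, Cd6, Ptprc and Cd48 is lower on the butyrate side.

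**Figure D2:**
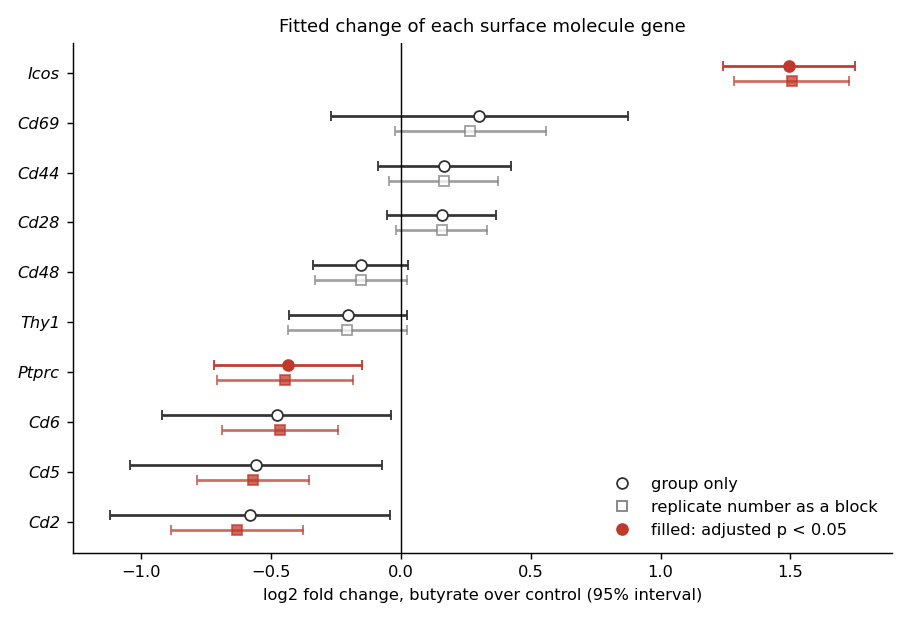
Fitted log2 fold change of butyrate over control with its 95% interval, for the fit on group only (circles) and with the replicate number as a block (squares). Icos stands apart at 1.5, Ptprc is filled in both fits, and Cd2, Cd5 and Cd6 are filled only with the block.

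Icos, gene 54167, lies on chromosome 1 from 60960773 to 61000322 (GRCm38, the build of mm10, here and below). It had 795, 776 and 822 CPM in butyrate replicates 1 to 3, and 331, 254 and 265 CPM in control replicates 1 to 3. Every butyrate library stood well above every control library, as all 3 did for 28.9% of tested genes. The means were 798 ± 23.1 CPM with butyrate and 283 ± 41.4 CPM in control (SD, n = 3), a fold of 2.82 with a 95% interval of 2.36 to 3.36. The log2 fold change was 1.5 (SE 0.112, edgeR adjusted p = 4.49e-05), and the rise was seen in 3 of 3 pairs of equal number, at 1.27, 1.61 and 1.63 on the log2 scale. It was called in each of 17 alternative settings, with log2 fold changes of 1.43 to 1.63, including a test against a fold of 1.5.

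Cd28, gene 12487, lies on the same stretch of chromosome 1 (60746388 to 60773359), upstream of Ctla4 and Icos. Its level was 668, 592 and 603 CPM in the butyrate libraries, and 603, 548 and 519 CPM in the control libraries. The groups overlapped, since butyrate replicate 2 lay below control replicate 1. Cd28 did not pass the test, with 621 ± 40.8 CPM with butyrate and 557 ± 42.3 CPM in control (log2 fold change 0.16, SE 0.0926, adjusted p = 0.194). The 95% interval of its fold ran from 0.964 to 1.29, beneath that of Icos, and over the 17 alternatives the log2 fold change of Cd28 ran from 0.10 to 0.24.

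A ratio of counts within a library compares both costimulatory receptors without scaling between libraries. For every read of Cd28 there were 1.19, 1.31 and 1.36 reads of Icos in the butyrate libraries, and 0.549, 0.463 and 0.511 in the control libraries. Icos reads outnumbered Cd28 reads in every butyrate library and in no control library. The log2 ratio differed by 1.35 (exact two-sided permutation p = 0.1, the smallest that 3 against 3 libraries can give). Per kilobase of exon, Icos stood at 233 ± 6.74 with butyrate and 82.5 ± 12.1 in control, and Cd28 at 143 ± 9.38 with butyrate and 128 ± 9.73 in control (CPM per kilobase).

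Ctla4, which lies between them and encodes an inhibitory receptor for the ligands of CD28, had 467, 480 and 487 CPM with butyrate, against 286, 196 and 217 CPM in control. Its log2 fold change was 1.04 (SE 0.133, edgeR adjusted p = 0.000395). The nearest tested gene on the other side of Cd28, Raph1, rose by a log2 fold change of 0.49 (adjusted p = 0.00354). The nearest tested gene beyond Icos, Ino80d, starts 2087028 bases away and fell by 0.63 on the log2 scale (adjusted p = 0.000281).

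A list of the CD28 and B7 families besides Cd28 and Icos also held Tnfrsf14, a TNF receptor family gene whose product HVEM binds the CD28 family relative BTLA. Among its 10 tested genes 5 rose and 1, Tnfrsf14, fell, where 23.5% of all tested genes rose and 22.5% fell. With the replicate block or without butyrate replicate 3, 2 of the 10 were lower. Icosl, the gene of the ICOS ligand, had 24.2 ± 0.483 CPM with butyrate and 15.7 ± 0.612 CPM in control. Cd80, which encodes a ligand shared by CD28 and CTLA-4, had 40.9 ± 8.07 CPM with butyrate and 13.9 ± 3.03 CPM in control (SD, n = 3 each, log2 fold change 1.54, edgeR adjusted p = 0.000355). Cd86, the gene of the other such ligand, stood at 3.93 ± 1.21 CPM with butyrate and 3.37 ± 1.06 CPM in control and did not pass the test (adjusted p = 0.609). Pdcd1lg2, a ligand gene of PD-1, rose by a log2 fold change of 1.27, whereas Tnfrsf14 fell by 1.5 on the log2 scale. Vtcn1 had no count in any library.

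Genes that act beneath CD28 and ICOS, or that control Icos RNA, were lower in 9 of 18 and higher in 2. Their median log2 fold change was -0.30, and over all tested genes 22.5% were lower and 23.5% higher. Pik3r1, the regulatory subunit of the phosphoinositide 3-kinase that both receptors recruit, had 117 ± 6.11 CPM with butyrate and 177 ± 6.78 CPM in control (adjusted p = 0.000485). Bcl10, part of the complex that links costimulation to NF-kB, fell by 0.58 on the log2 scale. Rc3h1, which encodes Roquin-1, an RNA-binding protein known to repress Icos RNA, had 75.1, 81.7 and 82.8 CPM with butyrate, against 103, 105 and 101 CPM in control. Its paralog Rc3h2 had 46.9 ± 5.62 CPM with butyrate and 67.4 ± 9.20 CPM in control, and the log2 fold changes were -0.37 for Rc3h1 and -0.52 for Rc3h2 (edgeR adjusted p = 0.00471 and 0.00956). Zc3h12a, the gene of the RNase Regnase-1, which also acts on Icos RNA, had 28.1 ± 3.86 CPM with butyrate and 27.8 ± 3.29 CPM in control and was not called (adjusted p = 0.948). Whether these changes bear on the level of Icos was not tested. Themis and Grb2, adaptors of the T cell receptor pathway, rose by log2 fold changes of 0.45 and 0.33.

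**Figure D3:**
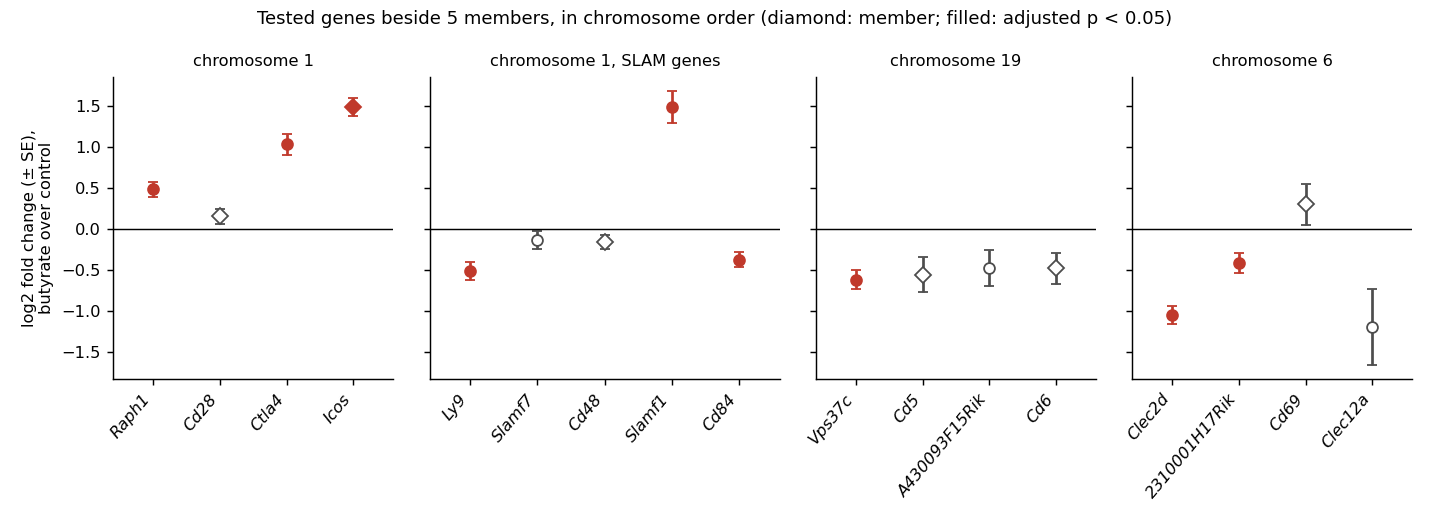
Log2 fold change of butyrate over control (± SE) for tested genes around 6 of the members, drawn in chromosome order and not to distance, with diamonds for members and filled symbols for an adjusted p under 0.05. In the first panel Ctla4 and Icos rise while Cd28 stays near 0, and in the second Slamf1 stands at 1.5 between Cd48 and Cd84, which lie below 0.

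The adhesion receptor gene Cd2 (gene 12481, chromosome 3, 101275908 to 101287939) had 302, 157 and 166 CPM in butyrate libraries, against 369, 289 and 276 CPM in control libraries. Butyrate replicate 1 stood far above the others of its group and exceeded 2 control libraries, so the groups overlapped. The log2 fold change was -0.58 (SE 0.238), which did not pass the test on group only (edgeR adjusted p = 0.0748). Within pairs of equal number the log2 difference was -0.29, -0.88 and -0.73, lower in 3 of 3. With the replicate block the log2 fold change was -0.63 (SE 0.111, adjusted p = 0.00166), and without butyrate replicate 1 it was -0.95 (adjusted p = 0.00123). Over 16 alternatives that test against no change the adjusted p ran from 0.00123 to 0.221.

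Cd48 (gene 12506, chromosome 1, 171681245 to 171705258), the glycolipid-anchored ligand of CD2 in mice, had 408, 436 and 400 CPM with butyrate, against 485, 453 and 446 CPM in control. All butyrate libraries lay below all control libraries, as was the case for 28.2% of all tested genes. The difference was small and did not pass the test (log2 fold change -0.15, SE 0.081, adjusted p = 0.152, interval of the fold 0.792 to 1.02), and over the 17 alternatives the log2 fold change ran from -0.19 to -0.07. Cd48 reads per Cd2 read numbered 1.35, 2.78 and 2.41 in the butyrate libraries, against 1.31, 1.57 and 1.61 in the control libraries. The ratio was higher in 3 of 3 pairs, at 0.04, 0.83 and 0.58 on the log2 scale, but the groups overlapped (difference 0.48, exact two-sided permutation p = 0.3). It was 0.79 without butyrate replicate 1 (p = 0.1, the smallest possible) and 0.27 without butyrate replicate 2 (p = 0.5, both exact).

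SLAM family receptors mostly bind themselves, 2B4 binds CD48, and several of them signal through the adaptor SAP. In a list of these receptors, SAP and intracellular partners of CD2, 2 of 10 tested genes rose, both receptors, and 3 fell. Those that fell were the receptor genes Ly9 and Cd84 and the SAP gene Sh2d1a. These counts stand near the shares over all tested genes, 23.5% higher and 22.5% lower. The partners Cd2ap, Cd2bp2 and Pstpip1 were not called. Slamf1, 1 of the genes next to Cd48, had 54.2 ± 9.61 CPM with butyrate and 19.2 ± 4.69 CPM in control (log2 fold change 1.5, edgeR adjusted p = 0.000427). Ly9 and Cd84, on both sides of it in the same gene cluster, fell by 0.51 and 0.37 on the log2 scale, while Slamf7, at 186 ± 12.8 CPM with butyrate and 203 ± 26.3 CPM in control, was not called (adjusted p = 0.352). Sh2d1a, the gene of SAP, had 41.9 ± 2.73 CPM with butyrate and 55.8 ± 2.99 CPM in control (adjusted p = 0.00642). Slamf6 rose by a log2 fold change of 0.60 (adjusted p = 0.0413), a call lost with robust fitting and without butyrate replicate 1 or 3 or control replicate 2 or 3, at edgeR adjusted p-values of 0.0517 to 0.127. Cd244a, which encodes the receptor 2B4 that binds CD48, had 48.5 ± 12.0 CPM with butyrate and 31.4 ± 9.16 CPM in control and was not called (adjusted p = 0.0531).

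Cd5 and Cd6 are neighbours on chromosome 19, at 10718107 to 10739026 (gene 12507) and 10789339 to 10830062 (gene 12511). Cd5 had 77.9, 68.8 and 44.7 CPM in the butyrate libraries, against 97.9, 112 and 71.9 CPM in the control libraries. Cd6 had 102, 92.8 and 72.3 CPM with butyrate, against 127, 155 and 90.4 CPM in control. For both genes replicate 3 was the lowest library of each group, and butyrate replicate 1 exceeded control replicate 3, so the groups overlapped.

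On group only neither passed the test, with log2 fold changes of -0.56 for Cd5 and -0.48 for Cd6 (SE 0.214 and 0.194, edgeR adjusted p = 0.0601 and 0.0723). Within pairs the log2 difference of Cd5 was -0.33, -0.70 and -0.68 and that of Cd6 was -0.32, -0.74 and -0.32, so both were lower in 3 of 3 pairs. With the replicate block both were called lower, at -0.57 for Cd5 and -0.46 for Cd6 (SE 0.0944 and 0.098, adjusted p = 0.00117 and 0.00416). Without control replicate 3 both were also called, at log2 fold changes of -0.71 (adjusted p = 0.0232) and -0.66 (adjusted p = 0.0107). Without butyrate replicate 1 Cd5 alone of this pair was called, at -0.72 (adjusted p = 0.032), against 0.0583 for Cd6. The change was smaller at -0.36 for Cd5 without butyrate replicate 3 (adjusted p = 0.147) and -0.28 for Cd6 without control replicate 2 (adjusted p = 0.255). The adjusted p over 16 alternatives that test against no change ran from 0.00117 to 0.191 for Cd5 and from 0.00416 to 0.255 for Cd6.

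Reads of Cd5 per read of Cd6 numbered 0.764, 0.741 and 0.619 in the butyrate libraries and 0.772, 0.723 and 0.796 in the control libraries, with overlap between the groups (exact two-sided permutation p = 0.4). In a comparison of the centred log2 CPM of each member with 9413 genes of at least 10 CPM, the named gene closest to Cd6 over the 6 libraries was Cd5, with a root mean square difference of 0.117. For Cd5 the closest were Cmah, at 0.0886, and A430093F15Rik, at 0.0979. A430093F15Rik lies between Cd5 and Cd6 and had 22.8 ± 6.96 CPM with butyrate and 31.7 ± 4.28 CPM in control (adjusted p = 0.103). These distances describe 6 libraries that share 2 conditions.

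A list of ligands and signalling partners of CD5 and CD6, which also held the transcription factor gene Ets1, had 13 tested genes. Of these 3 rose and 4 fell, beside 23.5% and 22.5% of all tested genes. Alcam, the gene of the adhesion molecule that binds CD6, had 69.3 ± 6.80 CPM with butyrate and 31.1 ± 1.34 CPM in control (log2 fold change 1.16, SE 0.102, edgeR adjusted p = 7.72e-05). Ubash3b and Cblb, which encode negative regulators of receptor signalling, rose by log2 fold changes of 1.01 and 0.63. Ptpn6, the phosphatase SHP-1, had 88.9 ± 6.06 CPM with butyrate and 183 ± 37.3 CPM in control, and Lcp2, the adaptor SLP-76, fell by 0.89 on the log2 scale. Cd72, a proposed ligand gene of CD5, was not called, with 15.8 ± 4.47 CPM under butyrate and 11.2 ± 2.50 CPM in control (adjusted p = 0.116).

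Ptprc (gene 19264, chromosome 1, 138062859 to 138175756) had 713, 932 and 698 CPM in the butyrate libraries, against 1146, 1014 and 1007 CPM in the control libraries. All butyrate libraries lay below all control libraries, with butyrate replicate 2 the closest to them. The means were 781 ± 131 CPM with butyrate and 1056 ± 78.0 CPM in control (SD, n = 3), and the log2 fold change was -0.43 (SE 0.126, edgeR adjusted p = 0.0204). Within pairs it was lower in 3 of 3, at log2 differences of -0.68, -0.12 and -0.53. The call was lost without butyrate replicate 1 (-0.37, adjusted p = 0.0558), butyrate replicate 3 (-0.36, 0.0617) or control replicate 1 (-0.36, 0.0754), within a range of 0.00457 to 0.0754 over the 16 alternatives that test against no change. Counts per gene do not show which of the variable exons of CD45 were used.

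Genes around CD45 were lower in 9 of 18 and higher in 3, with a median log2 fold change of -0.24. Over all tested genes the shares were 22.5% lower and 23.5% higher. Over the fits that left out 1 library, 7 to 9 genes of the list were lower and 3 to 4 higher. Lck, called lower, is also in the list of genes beneath CD28 and ICOS and among the T cell markers, so these counts are not separate. Ptprcap, which encodes the CD45-associated protein, had 376 ± 33.9 CPM with butyrate and 590 ± 9.24 CPM in control (log2 fold change -0.65, adjusted p = 0.000576). Fyn and Lck, Src family kinases on which CD45 acts, fell by 0.46 and 0.43 on the log2 scale, and Csk, the kinase that opposes it, by 0.25. Hnrnpll, a splicing factor that promotes skipping of the variable exons of CD45, had 84.1 ± 10.1 CPM with butyrate and 52.9 ± 3.24 CPM in control (adjusted p = 0.00124). Its relative Hnrnpl fell by 0.47. Lgals3, a galectin that binds glycans of CD45, had 355, 651 and 871 CPM with butyrate, against 154, 152 and 240 CPM in control.

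The RefSeq promoter table of GRCm38.p6 matched 4 of the 10 members, Ptprc, Cd5, Cd48 and Cd44. Windows of 300 bases, from 250 before a transcript start, are shown for the called Ptprc, for Cd5, called lower with the block, and for Cd44, called in neither fit, so that the sequences can be set side by side. The table has 2 windows for Ptprc, from starts 179 bases apart, and the upstream one is shown. All 3 printed windows are on the minus strand and are written 5′ to 3′ along the gene. Capitals mark CAGGAA or CCGGAA, which hold the GGAA core of ETS factors, and the GC box GGGCGG, searched on both strands. GGAA with other flanks also occurs in the printed windows, where it was not counted and stays in lower case.
Ptprc, chr1:138175256-138175555: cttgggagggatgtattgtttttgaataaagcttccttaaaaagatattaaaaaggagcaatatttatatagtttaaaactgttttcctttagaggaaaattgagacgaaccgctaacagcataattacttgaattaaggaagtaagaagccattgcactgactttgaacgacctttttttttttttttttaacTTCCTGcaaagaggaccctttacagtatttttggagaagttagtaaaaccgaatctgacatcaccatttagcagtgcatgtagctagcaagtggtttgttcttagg
Cd5, chr19:10738925-10739224: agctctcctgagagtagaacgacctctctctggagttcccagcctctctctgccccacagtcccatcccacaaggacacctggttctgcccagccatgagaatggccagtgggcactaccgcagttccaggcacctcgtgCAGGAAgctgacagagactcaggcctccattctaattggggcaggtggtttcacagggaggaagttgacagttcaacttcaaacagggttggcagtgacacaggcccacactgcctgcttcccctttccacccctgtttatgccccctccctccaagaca
Cd44, chr2:102901616-102901915: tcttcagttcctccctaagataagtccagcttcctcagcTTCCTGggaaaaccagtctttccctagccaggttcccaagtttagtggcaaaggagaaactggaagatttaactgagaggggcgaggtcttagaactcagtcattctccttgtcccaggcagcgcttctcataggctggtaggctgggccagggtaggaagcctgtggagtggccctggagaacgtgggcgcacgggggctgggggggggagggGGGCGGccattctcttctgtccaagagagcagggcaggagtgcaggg

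CAGGAA was found once in each of these windows, beginning 56 bases before the start in Ptprc, 110 in Cd5 and 211 in Cd44, and 30.6% of 32851 promoter windows hold it. GGGCGG was found in the window of Cd44 only, where it begins 3 bases after the start, and 35.7% of all windows hold it. CCGGAA was in none of the 3 and is in 14.9% of all windows. The other window of Ptprc, with 39.3% GC, holds CAGGAA from 235 bases before its start. The window of Cd48, also not printed, holds both CCGGAA and CAGGAA. The GC content was 33.7% for Ptprc, 57.3% for Cd5 and 58% for Cd44, against a median of 52.7% over all windows. The transcript of Ets1, an ETS factor of T cells, did not pass the test, at 749 ± 69.7 CPM with butyrate and 679 ± 75.8 CPM in control (edgeR adjusted p = 0.327).

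Thy1 (gene 21838, chromosome 9, 44043384 to 44048579) was the most abundant member and stood at rank 22 of the 11740 tested genes by mean CPM. It had 1601, 1764 and 1905 CPM in butyrate libraries, against 2007, 2159 and 1903 CPM in control libraries. Butyrate replicate 3 and control replicate 3 had nearly the same level, and the groups overlapped. Thy1 did not pass the test (log2 fold change -0.20, SE 0.0998, edgeR adjusted p = 0.126), the 95% interval of its fold was 0.742 to 1.02, and the 17 alternatives gave log2 fold changes of -0.27 to -0.12. The nearest tested gene on 1 side, Usp2, was at a low level and rose, with 8.79 ± 0.415 CPM with butyrate and 1.29 ± 0.595 CPM in control (log2 fold change 2.75, adjusted p = 0.00018).

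Cd44 (gene 12505, chromosome 2, 102811141 to 102901669) had 220, 183 and 235 CPM with butyrate, against 209, 181 and 176 CPM in control. The groups overlapped and the gene was not called (log2 fold change 0.17, SE 0.113, edgeR adjusted p = 0.254, interval of the fold 0.940 to 1.34, log2 fold change over 17 alternatives 0.09 to 0.26). Among 10 tested genes of its cytoskeletal linkers, hyaluronan partners and sheddases, 2 rose and 3 fell. These counts are near the 23.5% and 22.5% of all tested genes. Hmmr, a hyaluronan-binding protein that also acts on the mitotic spindle, had 115 ± 10.6 CPM with butyrate and 238 ± 10.5 CPM in control. Nf2, the gene of merlin, which binds the tail of CD44, rose by a log2 fold change of 0.73. Adam10, a protease that sheds CD44, fell by 0.65, whereas Msn and Ezr, which encode moesin and ezrin, did not pass the test (adjusted p = 0.397 and 0.332). The hyaluronan synthase genes Has1 and Has2 had no count in any library.

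Cd69 (gene 12515, chromosome 6, 129267324 to 129275375) had 42.9, 87.5 and 86.3 CPM in the butyrate libraries, against 47.7, 58.4 and 69.4 CPM in the control libraries. Replicate 1 was the lowest library in both groups, and the groups overlapped. The log2 fold change was 0.30 (SE 0.252, edgeR adjusted p = 0.352), with an interval of the fold from 0.831 to 1.83. Within pairs it was -0.15, 0.58 and 0.31, and without butyrate replicate 1 the gene was called higher at 0.57 (adjusted p = 0.0151, within 0.0151 to 0.718 over 16 alternatives that test against no change). Without butyrate replicate 2 the log2 fold change was 0.14. Cd69 reads per Cd44 read numbered 0.196, 0.480 and 0.368 with butyrate, against 0.228, 0.323 and 0.394 in control (exact two-sided permutation p = 0.9).

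The C-type lectin gene Clec2d, near Cd69 on chromosome 6, had 78.8 ± 7.97 CPM with butyrate and 162 ± 16.5 CPM in control (log2 fold change -1.04, adjusted p = 0.000141), and Clec2i fell by 0.55 on the log2 scale. Of 9 tested partners and cluster neighbours of CD69, 3 rose and 2 fell, beside 23.5% and 22.5% of all tested genes. Those that rose were Klrb1c, Cd9 and Slc7a5, by log2 fold changes of 1.66, 1.22 and 0.55. S1pr1, the sphingosine phosphate receptor that CD69 draws from the cell surface, was not called, with 343 ± 8.29 CPM under butyrate and 381 ± 25.1 CPM in control (adjusted p = 0.157). Klf2, which drives S1pr1, was also not called, at 102 ± 24.7 CPM with butyrate and 127 ± 16.0 CPM in control (adjusted p = 0.157).

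Per kilobase of exon, Icos stood above Cd2, Ptprc and Cd28 with butyrate and below them in control, and Cd6 stood below Cd69 and Cd44 with butyrate and above them in control. With butyrate the order was Thy1, Cd48, Icos, Cd2, Ptprc, Cd28, Cd69, Cd44, Cd6 and Cd5. In control it was Thy1, Cd48, Cd2, Ptprc, Cd28, Icos, Cd6, Cd69, Cd44 and Cd5. Thy1 stood at 935 ± 81.2 CPM per kilobase with butyrate and 1077 ± 68.6 in control, and Cd5 at 20.4 ± 5.48 with butyrate and 30.1 ± 6.52 in control. With butyrate, the ranges of neighbours in the order overlapped from Icos to Cd28 and from Cd69 to Cd5. In control they overlapped only from Cd6 to Cd5, and each of the other neighbours was separated in 3 of 3 libraries. Lengths are summed exons of the GENCODE basic set, which may differ from those used in counting.

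**Figure D4:**
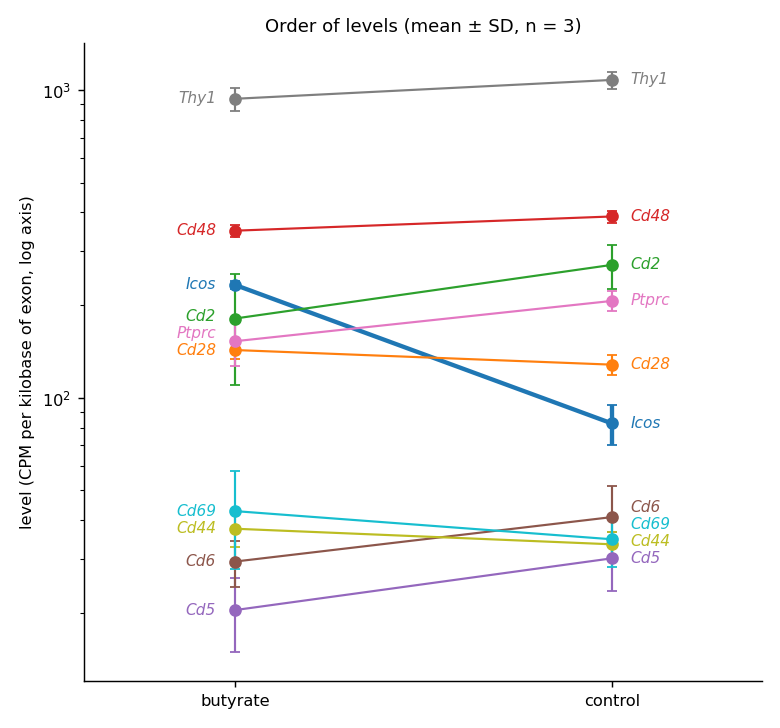
Level of each member per kilobase of exon on a log axis, as mean ± SD over 3 libraries, with butyrate on the left and control on the right. The thick line of Icos stands in the third place with butyrate and in the sixth in control, and crosses those of Cd2, Ptprc and Cd28.

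A further list held other activation and adhesion molecules of T cells. Of 30 tested, 11 rose and 11 fell, with a median log2 fold change of 0.13. Over the fits that left out 1 library, 9 to 13 rose and 7 to 12 fell. In the main fit 23.5% of all tested genes rose and 22.5% fell. Cd81, a tetraspanin, had 37.7 ± 5.82 CPM with butyrate and 4.20 ± 1.11 CPM in control (log2 fold change 3.17, edgeR adjusted p = 2.90e-05). Tnfrsf9 and Il2ra, genes of the induced receptors 4-1BB and CD25, rose by log2 fold changes of 1.76 and 1.54. Cd96 and Cd226, receptors for nectin family ligands, had 50.8 ± 0.495 and 50.6 ± 4.03 CPM with butyrate, against 143 ± 17.4 and 96.4 ± 7.66 CPM in control. Cd27 fell by 1.58 on the log2 scale, and Itgal, the alpha chain of LFA-1, was not called, with 737 ± 47.5 CPM under butyrate and 713 ± 25.5 CPM in control (adjusted p = 0.669).

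**Figure D5:**
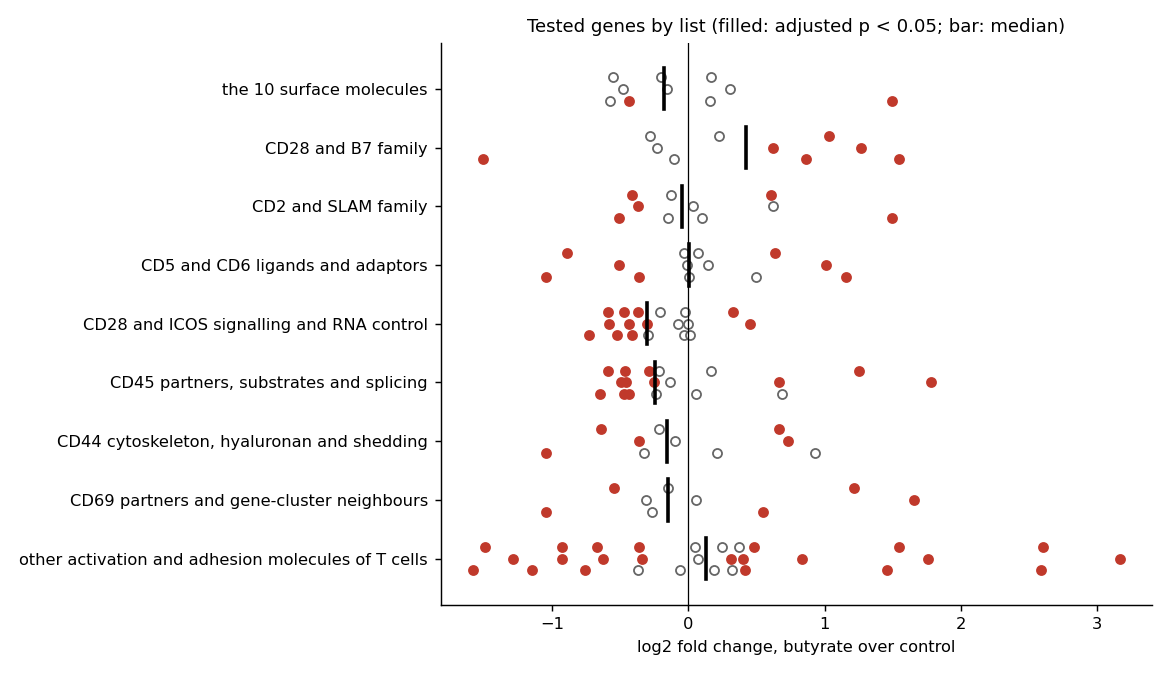
Log2 fold change of butyrate over control for every tested gene of the member list and of 8 related lists of receptors and partners, with filled points for an adjusted p under 0.05 and a bar at each median. Among the members the point of Icos at 1.5 stands alone on the right, while the medians of the lists run from -0.30 to 0.42.

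Several members are also made by cells other than T cells, Ptprc, Cd44 and Cd48 by most leukocytes, and in bulk RNA fewer cells of a type and less RNA per cell cannot be told apart. Of 12 T cell markers 6 were lower and none higher (1 higher with the replicate block). For this and the other marker lists, the shares over all tested genes were 22.5% lower and 23.5% higher. Cd8a was not called, with 436 ± 55.1 CPM with butyrate and 454 ± 62.1 CPM in control (edgeR adjusted p = 0.741). Summed over the list, T cell markers stood at 6115 to 7459 CPM with butyrate and 6757 to 7232 CPM in control. The largest parts of that sum were Trac and Trbc2, which were not called. Among the T cell markers called lower, Trbc1, Lat, Cd247 and Cd3e had log2 fold changes of -1.29, -0.68, -0.62 and -0.61. Of the CD4 T cell list 2 of 3 tested genes rose (1 fell with the replicate block or without control replicate 1), and Cd4 itself was at 4.63 ± 0.842 CPM with butyrate and 0.608 ± 0.737 CPM in control. B cell and plasma cell markers summed to 427 to 510 CPM with butyrate and 282 to 322 in control, mostly Xbp1. Among them 3 of 5 tested rose, while Pax5 had no count in any library.

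Macrophage and dendritic cell markers summed to 82.9 to 96.3 CPM with butyrate and 21.9 to 78.0 in control, with Itgam higher and the other 3 tested not called (2 of 4 higher without control replicate 3). Their defining genes Csf1r and Adgre1 averaged 0.582 and 0.119 CPM with butyrate, and 0.891 and 0.108 CPM in control. NK cell markers summed to 2553 to 3330 CPM with butyrate and 957 to 2267 in control, mostly Gzma and Nkg7, with Ncr1 at 0.0616 CPM with butyrate and 0.116 CPM in control. In that list 3 of 6 tested rose and 1 fell. Granulocyte and mast cell markers summed to 27.3 to 61.0 CPM with butyrate and 11.1 to 25.5 CPM in control. Of 5 tested 3 rose, namely Cxcr2, Siglecf and Kit, while Cpa3 and Fcer1a were not called. Another 6 genes of that list, S100a8, S100a9, Ly6g, Elane, Mpo and Csf3r, averaged under 1 CPM in both groups. Erythroid and platelet markers summed to 9.63 to 102 CPM with butyrate and 1.48 to 8.27 CPM in control (2 of 3 tested rose). In both lists replicate 3 had the highest sum of each group. Hbb-b1, for example, had 31.4 CPM in butyrate replicate 3, against 2.96 and 1.89 CPM in butyrate replicates 1 and 2. The macrophage gene Lyz2 had 45.6 CPM in control replicate 3, against 13.7 and 8.35 CPM in control replicates 1 and 2. Of the erythroid and platelet list 3 of 3 rose with the replicate block, 3 of 4 without butyrate replicate 1, 3 of 5 without control replicate 1 and 4 of 5 without butyrate replicate 2, and the filter kept more of its genes in those fits that left out a library. The part of these markers in the changes of the members was not tested. GENCODE places another transcript model within the span of Icos, Ptprc, Cd48 and Cd44, so reads shared with those models are uncertain.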

How the data were processed

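RNA of 3 butyrate and 3 control libraries was prepared from 1 µg of total RNA with a TruSeq kit, per the labels' protocols. The authors deposited raw read counts per gene under Entrez numbers. Tools listed in the submitters' processing notes are TopHat, featureCounts from Subread, Picard, CASAVA and edgeR, and the build is mm10. No source used here gives their roles and versions, the strand setting or the treatment of shared reads. Columns were matched to samples by the label that names them. RefSeq (GRCm38.p6) named 25275 of the 27179 genes and GENCODE 18. No column was left out.

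Counts were tested with edgeR 4.0.16 (R 4.3.3) by the quasi-likelihood F test with TMM scaling, filterByExpr and Benjamini-Hochberg adjustment over 11740 genes. The SE was derived from the log2 fold change and its F, and 95% intervals are unadjusted. Values are TMM-scaled CPM (SD, n = 3). Ratios used a prior count of 0.5. The fit was also run on simulated counts with 200 changed genes, the same dispersion for every gene and no pairing. Those settings differ from these data, so that run says little about the calls here. Replicates were not copies of one another, since chi-square over degrees of freedom was 5.43 to 10.6. The labels do not give separate mice or cultures, so p-values measure the spread between these libraries, which may be technical. Same-numbered libraries deviated together over genes (correlation of deviations from the group means 0.362, 0.197 and 0.353, against -0.301 to -0.0746 for other pairs). This pairing comes from the data, not the labels. Deviations cancel within a group, so positive values for same-numbered pairs bring negative ones for other pairs, which are not separate support.

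The members and lists were chosen with earlier results of these data known. The rule for naming took all members, up to 3 called genes per direction of each list by smallest p, chromosome neighbours, and the 2 genes most like a member. The text does not name every gene of this rule. Left out were the list genes Sh2d2a, Gcnt1, Skap1, Hyal2 and Adam17, and neighbours and likeness genes are given for some members only. Genes named otherwise (such as Icosl, Cd86, Rc3h2, Zc3h12a, Slamf7, Cd244a, Cd72, Lck, Csk, Hnrnpl, Ets1, Msn, Ezr, S1pr1, Klf2, Itgal and Cd8a) were chosen after their values were seen, for their known roles. Alternatives were scaling by RLE, by the upper quartile, by total counts or by TMM leaving out the top 50 genes, either no filter or one of 5 CPM in 3 libraries, DESeq2 1.42.0, limma voom (3.58.1), robust edgeR, glmTreat against a fold of 1.5, the replicate block, each library left out, and for ratios a prior count of 5. Transcript length was varied after the data were seen.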

Additional observations from a re-analysis of the deposited data

How the results depend on the processing

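Icos was called higher under all 17 alternatives. The number of members called lower was 1 and became 4 with the replicate block, with no filter and with DESeq2 (Cd2, Cd5, Cd6 and Ptprc each time) and 0 with glmTreat against a fold of 1.5. Over the fits that left out 1 library it ran from 0 to 3, and the number called higher from 1 to 2, the second being Cd69 without butyrate replicate 1. Without butyrate replicate 3 or control replicate 1 no member was called lower. Over all genes, 3095 of 11740 were lower with the replicate block, 2872 of 16993 with no filter and 2257 of 11740 with DESeq2. Fits that left out 1 library called 2118 to 2552 genes lower and 2369 to 2633 higher, of 11888 to 12017 tested. The glmTreat test called 1104 genes higher and 489 lower, against 2756 and 2637 in the main fit. Upper quartile scaling moved the share of higher calls to 61.8%, against 51.1%, without changing a call of a member. The within-library log2 ratio of Cd69 to Cd44, 0.08 with all libraries, turned to -0.20 without butyrate replicate 2, -0.01 without butyrate replicate 3 and -0.13 without control replicate 1, and ran from -0.20 to 0.45. The mean difference of 1.35 in the log2 ratio of Icos to Cd28 is the same by construction when libraries are paired by number. That ratio was higher with butyrate in 3 of 3 pairs (paired exact p = 0.25, the smallest 3 pairs allow). A count was also made over 52 genes, the members and the list genes picked by smallest p, without neighbours or likeness genes. Of their results under alternatives 839 kept direction and side of the threshold, 31 lost the call and 14 gained one. Since the list genes were picked for a small p in these same data, their kept calls do not measure robustness. With 3 libraries a group, differences such as that of Cd48 could not be told from the spread between libraries.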
